A study of Homo sapiens with 2 samples.

Results

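Circadian clock genes were described in U251, a human glioblastoma cell line, given the mitochondrial Hsp90 inhibitor G-TPP or its solvent. The 10 genes are PER1, PER2, PER3, CRY1, CRY2, CLOCK, DBP, TEF, HLF and BHLHE40. They were taken by symbol, as probe sets with a single gene symbol in the platform annotation, and all 10 were found among 18417 named genes, each with 1 probe set. G-TPP, one of the Gamitrinibs, couples a geldanamycin-derived Hsp90 inhibitor to the cation triphenylphosphonium, which carries it into mitochondria. One group was U251 cells with 5 µM G-TPP for 6 h, and the other was U251 cells given DMSO under the same protocol. Both were grown in high-glucose DMEM, and each group is 1 array of total RNA. The series asks how transcripts respond when Hsp90-type chaperones of mitochondria are inhibited. The labels name 1 time and say nothing of clock synchronisation, so a rhythm or its phase was not measured.

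The molecular clock is a transcription loop. CLOCK and its partner BMAL1 bind E-box sequences and switch on the PER and CRY genes, whose proteins return to the nucleus and inhibit CLOCK-BMAL1. A linked loop of REV-ERB and ROR nuclear receptors controls BMAL1. The PAR bZIP activators DBP, TEF and HLF compete with the repressor NFIL3 for D-box sequences. Besides their rhythm, PER genes and BHLHE40 are known to respond acutely to signals such as cyclic AMP and glucocorticoid.

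PER2 was the clock gene with a large difference, so the promoter windows of the 3 PER paralogues are shown side by side. They come from RefSeq, build GRCh38.p14, and each holds 250 bases before and 50 after an annotated transcript start, read along the gene. Capitals mark matches, on either strand, to the motifs searched. PER2 is at chr2:238288561-238288860 on the minus strand, PER1 at chr17:8152355-8152654 on the minus strand, and the upstream start of PER3 at chr1:7784041-7784340 on the plus strand.
PER2: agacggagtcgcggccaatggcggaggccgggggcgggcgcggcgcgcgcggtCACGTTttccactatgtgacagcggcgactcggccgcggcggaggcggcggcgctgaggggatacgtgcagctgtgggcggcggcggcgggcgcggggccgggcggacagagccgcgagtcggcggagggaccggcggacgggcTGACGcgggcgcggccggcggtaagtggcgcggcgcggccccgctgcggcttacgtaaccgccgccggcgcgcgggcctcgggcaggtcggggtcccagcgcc
PER1: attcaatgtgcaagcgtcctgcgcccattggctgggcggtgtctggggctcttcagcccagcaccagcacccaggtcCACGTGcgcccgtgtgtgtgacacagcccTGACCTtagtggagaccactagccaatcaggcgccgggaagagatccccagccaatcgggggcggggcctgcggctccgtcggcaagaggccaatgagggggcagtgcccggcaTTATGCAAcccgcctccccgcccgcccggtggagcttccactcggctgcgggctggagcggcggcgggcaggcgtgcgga
PER3: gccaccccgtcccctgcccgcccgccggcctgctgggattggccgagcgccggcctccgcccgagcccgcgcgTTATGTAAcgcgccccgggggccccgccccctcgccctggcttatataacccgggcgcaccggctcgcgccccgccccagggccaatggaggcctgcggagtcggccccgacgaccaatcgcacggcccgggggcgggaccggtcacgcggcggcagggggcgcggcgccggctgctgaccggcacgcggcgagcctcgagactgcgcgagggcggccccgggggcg

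The PER windows held different matches to the patterns searched. In the PER2 window an E-prime-box (CACGTT, a variant of the E-box) began 197 bases before the start, and a CRE core (TGACG, the core of the CREB and ATF site) began 53 bases before it. The PER1 window had an E-box (CACGTG) at 173 bases, a ROR core (AGGTCA, on the opposite strand) at 144 bases and a D-box (TTATGNAA) at 30 bases before the start. In PER3 a D-box lay 177 bases before the upstream start, and the window of its other start had no match. Among all 35116 promoter windows, 7.26% held the E-box, 5.34% the E-prime-box, 3.30% the D-box, 13.8% the ROR core and 24.6% the CRE core. The D-box was searched as TTATGNAA alone, so a near match such as ttacgtaa in the PER2 window was not counted. A match is a string of letters and no evidence of binding.

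The clock genes together have 15 windows, as 5 of them have more than 1 annotated start. An E-box was found for PER1, TEF and BHLHE40, in 4 windows. The E-prime-box was found for PER2, CRY1, CRY2 and CLOCK, also in 4 windows. The CRE core was not particular to PER2, as 5 members held it (PER2, CRY1, CRY2, CLOCK and HLF), in 6 windows. HLF was the member with a full CRE (TGACGTCA, which contains the CRE core on both strands), 7 bases before its upstream start, and 1.85% of all windows held that motif. No member window held the C/EBP-ATF composite site (TGATGNAA, in 3.62% of all windows) or the heat shock element (inverted repeats of its GAA unit, in 0.490%). That says only that these letters are not in these windows.

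**Figure D1:**
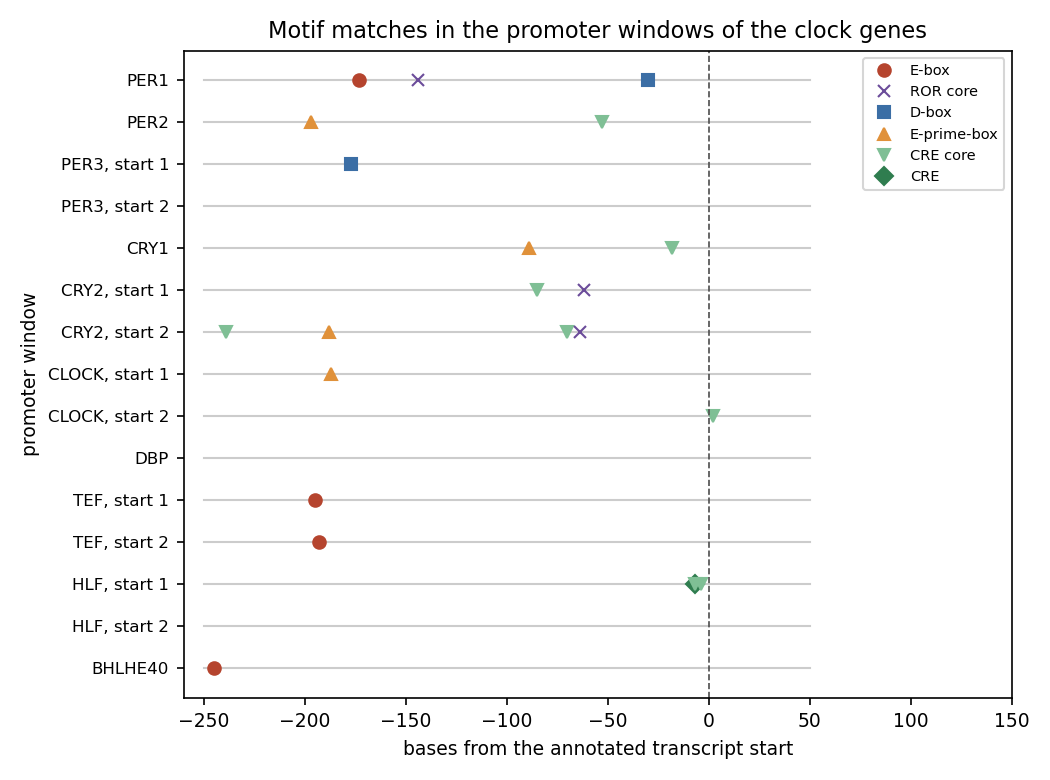
Motif matches in the 15 promoter windows of the clock genes, with the distance in bases from the annotated transcript start on the horizontal axis and 1 line per window. PER2 has an E-prime-box 197 bases and a CRE core 53 bases before its start, and DBP has no match.

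In the arrays PER2 was 2.28-fold higher with G-TPP, and the other 9 clock genes lay between 1.09-fold lower (PER3) and 1.22-fold higher (TEF). With 1 array per group there is no replicate check, no standard error and no test, so "higher" and "lower" describe these arrays only. Values are the deposited intensities, on a linear scale after the authors' RMA normalization, and differences are log2 G-TPP minus DMSO. Levels of different probe sets are not comparable with each other. A gene counted as kept if its brighter array reached 239.2, which is the median of such brighter values across the whole array. Of the 10 clock genes 9 were kept, and TEF passed through its G-TPP array alone. At 2-fold, 1 of the 9 was higher, where 2.80% of the 11091 kept genes were, and 0 were lower, where 0.550% of them were.

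Some scale for array noise comes from genes with little expression and from repeated probe sets. The log2 differences of 341 olfactory receptor genes, mostly silent outside the nose, had a standard deviation of 0.19, and the largest absolute difference was 0.80. In 328 genes with a pair of kept probe sets, the standard deviation per probe set was 0.17. Neither includes variation between cultures.

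PER2 encodes a repressor of CLOCK-BMAL1, and an inherited PER2 mutation is known to advance sleep timing in human families. Its intensity was 1025 with G-TPP and 450.2 with DMSO, a log2 difference of 1.19. It ranked 209th from the top of the 11091 kept genes. PER1, a paralogue known for acute induction by light in mouse, had 308.3 with G-TPP and 291.9 with DMSO (log2 difference 0.08). For PER3 the values were 594.8 with G-TPP and 649.1 with DMSO (log2 difference -0.13). The log2 difference of PER2 thus exceeded that of PER1 by 1.11 and that of PER3 by 1.31, against 0.21 between PER1 and PER3. These are gaps between probe sets in the same 2 arrays and were not tested.

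**Figure D2:**
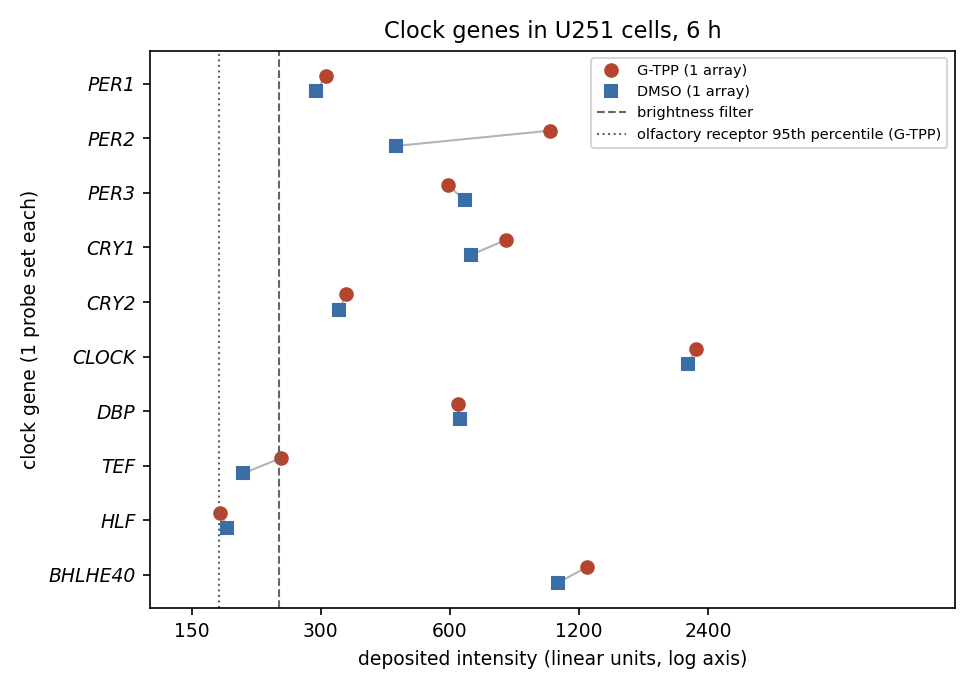
Deposited intensity (linear units on a log axis) of the 10 clock genes with G-TPP (circles) and DMSO (squares), 1 array each, with the brightness filter at 239.2 dashed and the olfactory receptor guide at 173.6 dotted. PER2 is the gene whose points stand far apart, at 1025 with G-TPP and 450.2 with DMSO. Points may be compared within a gene but not between genes.

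The cryptochromes CRY1 and CRY2 encode the repressors that bind PER proteins and block CLOCK-BMAL1. CRY1 had an intensity of 811.0 with G-TPP and 669.8 with DMSO, 1.21-fold higher. CRY2 stood at 344.3 with G-TPP and 330.8 with DMSO, 1.04-fold higher. Their log2 differences, 0.28 and 0.06, were 0.22 apart, and both were far from 2-fold.

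CLOCK, the activator that pairs with BMAL1, was nearly equal in both arrays at 2248 with G-TPP and 2147 with DMSO, a log2 difference of 0.07. BHLHE40, a bHLH repressor that competes for E-boxes and is also known as DEC1, had 1250 with G-TPP and 1073 with DMSO, 1.16-fold higher. Its paralogue BHLHE41, named after its value was seen, had a log2 difference of 0.13. CLOCK's paralogue NPAS2 was under the filter in both arrays, at 217.3 with G-TPP and 190.9 with DMSO.

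The PAR bZIP activators were close in both arrays. DBP, whose transcript is a standard readout of CLOCK-BMAL1 activity, had 624.6 with G-TPP and 633.3 with DMSO, a log2 difference of -0.02. TEF was dim, at 242.3 with G-TPP and 197.8 with DMSO, 1.22-fold higher. HLF was not kept. Its 175.1 with G-TPP and 181.2 with DMSO were just above the 95th percentile of the olfactory receptors, which was 173.6 with G-TPP and 172.6 with DMSO. The HLF difference of -0.05 therefore belongs to a probe set at the edge of the olfactory receptor range.

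In order of log2 difference the genes ran PER2 (1.19), TEF (0.29), CRY1 (0.28), BHLHE40 (0.22), PER1 (0.08), CLOCK (0.07), CRY2 (0.06), DBP (-0.02), HLF (-0.05) and PER3 (-0.13). Below PER2 every neighbouring pair in that order was closer than the 0.17 scatter of repeated probe sets. The 9 kept members had a median of 0.08, beside -0.04 for all kept genes, and 7 of the 9 were above 0, where 44.0% of all kept genes were. The 7 include TEF, which was kept through its G-TPP array alone. Without PER2 the median of the other 8 was 0.07.

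**Figure D3:**
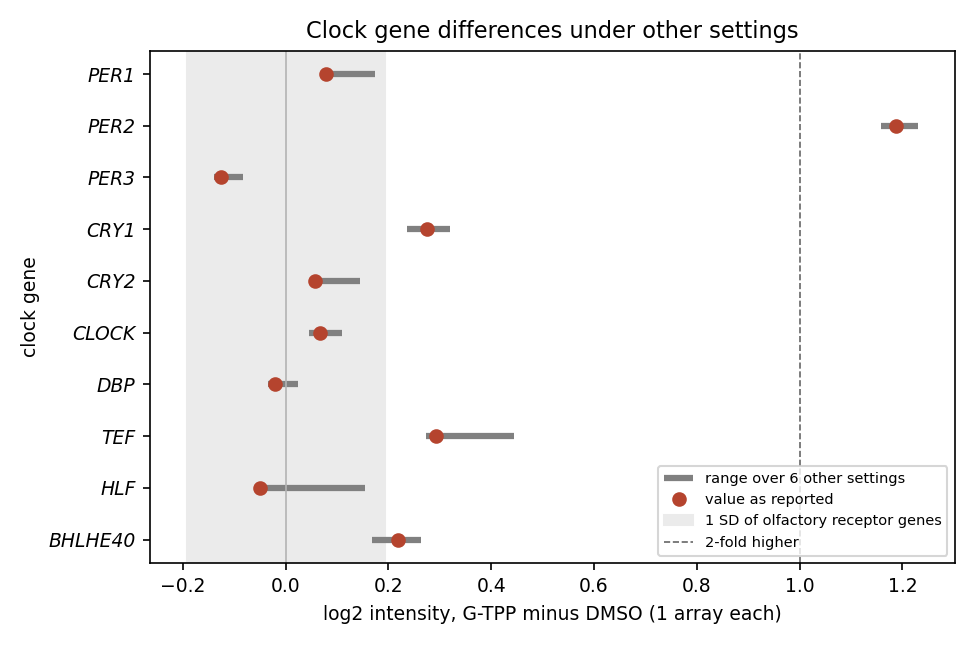
Log2 difference, G-TPP minus DMSO, of each clock gene as reported (points) and its range over 6 other settings of scaling, probe set choice and pseudocount (bars), with the shaded band at 1 standard deviation (0.19) of the olfactory receptor genes. PER2 stays past 2-fold in all 6 settings, between 1.16 and 1.23, and the highest value of any other gene is 0.44, for TEF. The settings of probe set choice could not change a value, as each clock gene has 1 probe set.

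Other transcription factors and repressors of the loop included NFIL3 and NR1D2, both past 2-fold higher with G-TPP. That list had 13 genes, of which 12 were measured and 10 kept, with 2 at least 2-fold higher and 0 at least 2-fold lower, where 2.80% and 0.550% of all kept genes were. Its median log2 difference was 0.18, beside -0.04 for all kept genes. That median includes BMAL1 and RORB, which were kept through the G-TPP array alone. RORB had 269.6 with G-TPP and 219.4 with DMSO. NFIL3, the repressor that opposes DBP, TEF and HLF at D-boxes, had 1587 with G-TPP and 353.1 with DMSO, 4.50-fold higher. Its log2 difference exceeded that of DBP by 2.19. NR1D2, which encodes REV-ERB beta, had 2561 with G-TPP and 1011 with DMSO, 2.53-fold higher. NR1D1, the gene of its paralogue REV-ERB alpha, had 424.9 with G-TPP and 502.0 with DMSO, 1.18-fold lower. So the REV-ERB genes, like the PER genes, held members with unlike differences, 1.58 apart on the log2 scale for NR1D2 and NR1D1.

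BMAL1, the partner of CLOCK, had 329.0 with G-TPP and 183.8 with DMSO, 1.79-fold higher and short of 2-fold. Its DMSO value was under the filter and near the olfactory receptor guide of 172.6, so BMAL1 was kept through its G-TPP array alone. Background left in dim values pulls a fold towards 1, but dim values also scatter. The log2 difference of BMAL1 was 0.84, and the largest absolute difference among the olfactory receptor genes was 0.80. BMAL2, named after its value was seen, had a log2 difference of -0.10. CIPC, a repressor that binds CLOCK, was also picked out after its value was seen, at 356.7 with G-TPP and 537.9 with DMSO, 1.51-fold lower. At 1.5-fold the list had 3 genes higher and 1 lower, where 7.36% and 3.22% of all kept genes were.

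**Figure D4:**
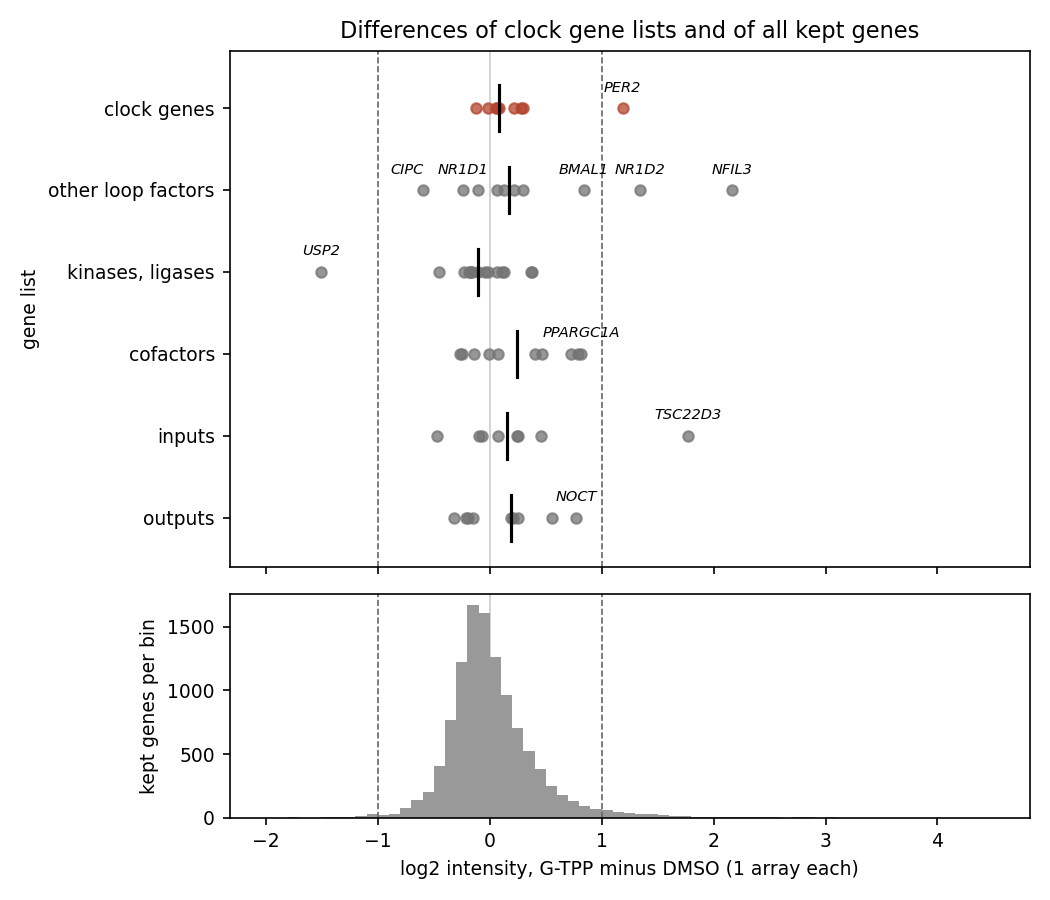
Log2 difference, G-TPP minus DMSO, of kept genes in 6 clock lists (upper panel, 1 point per gene, vertical bars at medians) above the histogram of all 11091 kept genes (lower panel, number of genes per bin of width 0.1), with 2-fold dashed. NFIL3, TSC22D3, NR1D2 and PER2 lie past 2-fold on the right and USP2 past it on the left, and the medians of the 6 lists lie between -0.11 and 0.24.

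Enzymes that set the stability of PER, CRY and their partners mostly differed little. Of 15 kept kinases, phosphatases, ubiquitin ligases and deubiquitinases, 0 were at least 2-fold higher and 1 at least 2-fold lower, against 2.80% and 0.550% of all kept genes. The median log2 difference was -0.11. The 1 was USP2, a deubiquitinase that acts on PER1 and BMAL1 in mouse, with 192.5 with G-TPP and 547.2 with DMSO, 2.84-fold lower. In the G-TPP array USP2 lay near the guide of 173.6 and under the filter of 239.2, so it was kept through its DMSO array alone. The casein kinase gene CSNK1D, whose product phosphorylates PER proteins, had a log2 difference of -0.18 and was named after its value was seen.

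Of 10 kept cofactors 0 reached 2-fold in either direction, where 2.80% of all kept genes were higher and 0.550% lower, and the median was 0.24. PPARGC1A, a coactivator of ROR at Bmal1 in mouse, was 1.76-fold higher at 620.0 with G-TPP and 351.8 with DMSO. KDM5A, a histone demethylase known to assist CLOCK-BMAL1, was 1.73-fold higher, and the acetyltransferase gene CREBBP 1.66-fold higher. Genes of the cyclic AMP and glucocorticoid pathways, which induce PER genes acutely, had a median of 0.16 over 8 kept genes. Of these 1 was at least 2-fold higher and 0 lower, beside 2.80% and 0.550% of all kept genes. It was TSC22D3, a glucocorticoid-induced gene also called GILZ, at 1194 with G-TPP and 350.3 with DMSO, 3.41-fold higher. It stands in the list as a target of the glucocorticoid receptor, not as a factor acting on PER genes. NR3C1, the glucocorticoid receptor gene, had a log2 difference of 0.24, and CREB1 one of 0.25. In the same list SIK3 was 1.37-fold higher and CRTC1 1.38-fold lower. All of these were named after their values were seen. Of the 8 kept genes 5 were above 0 and 3 below, where 44.0% of all kept genes were above 0.

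Known outputs of E-box and D-box factors had 0 of 9 kept genes at 2-fold in either direction, against the same shares of all kept genes, and a median of 0.19. NOCT, which encodes the rhythmically expressed protein nocturnin, was 1.71-fold higher at 1233 with G-TPP and 721.9 with DMSO. CDKN1A, the cell cycle inhibitor p21, was 1.47-fold higher. PROK2, a secreted signal of the central clock, was 1.25-fold lower and dim at 203.2 with G-TPP and 253.6 with DMSO. It was kept through its DMSO array alone, as were AVP and PPARA of this list. All 6 lists share the same 2 arrays, so their values are not independent of each other.

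The arrays' medians were 215.5 with G-TPP and 224.8 with DMSO over 33297 probe sets. Of 12 astroglial and glioma markers 9 were above the olfactory receptor guide in both arrays. The 12 summed to 19553 with G-TPP and 23620 with DMSO, and the brightest probe sets dominate such sums. VIM and CD44 were far above the guide, GFAP was closer to it at 231.5 with G-TPP and 245.2 with DMSO, and AQP4, S100B and OLIG2 were under it in at least 1 array. SOX2, a neural stem cell factor, was 2.72-fold lower with G-TPP, at 1629 against 4434 with DMSO. That gene makes up most of the gap between the sums. Markers of foreign cell types were above the guide in both arrays for 6 of 14 genes, and the 14 summed to 3896 with G-TPP and 4379 with DMSO. The 6 were the macrophage marker CD68, the endothelial CDH5, the epithelial KRT8 and the neuronal RBFOX3, SYP and SNAP25. KRT8 was the brightest of them, at 1809 with G-TPP and 2167 with DMSO. SYP was only just above the guide in the DMSO array, at 173.9 against 172.6. SNAP25, at 197.5 with G-TPP and 212.5 with DMSO, was also close to the guide. The other 8 were under it in at least 1 array, namely PTPRC, CD3E, PECAM1, VWF, EPCAM, CDH1, ALB and APOB. The part of these levels in the clock gene values was not tested.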

How the data were processed

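Biotin-labelled cRNA was made from 6 µg total RNA for hybridisation to Affymetrix arrays (per the labels' protocols). Each deposited value is a linear intensity of a probe set, and they span 6.61 to 18995. The authors ran RMA in Affymetrix Expression Console 1.1.2, per the submitters' processing notes. The arrays in that run and the conversion to linear values are not stated there. RMA makes the arrays' distributions alike, so a change in total RNA per cell is not visible. The number of arrays, 1 per group, limits the precision.

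Probe sets were named through the platform annotation, and gene IDs were looked up in the RefSeq table of GRCh38.p14. Of 33297 probe sets 19460 had 1 symbol (19429 of their gene IDs matched), 1754 had several and were not named, and 12083 were not listed. For 769 genes with more than 1 probe set the brightest was used. Log2 was taken with no pseudocount. Genes were counted at 2-fold. Of the other clock lists, kept genes at 2-fold are named, or else up to 3 with the largest absolute difference, and BMAL1, NPAS2, NR1D1 and NR1D2 always. Exceptions are marked in the text. The members and lists were chosen with earlier results of these data known. The count procedure was run on simulated data with shifts set well past the threshold and small noise. That checks the code and says nothing of the error of these arrays. RefSeq promoter windows matched all 10 members. Alternatives were 1.5-fold and 3-fold thresholds, other brightness filters, median and lowess centring (span 0.3), quantile normalization, other probe set choices and log2 of the intensity plus 16. Software was matplotlib 3.10.9, statsmodels 0.14.6, pandas 2.3.3 and numpy 2.4.6 under Python 3.11.15.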

Additional observations from a re-analysis of the deposited data

How the results depend on the processing

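With a 3-fold threshold 0 clock genes were called higher, where PER2 had been the 1 call at 2-fold. That follows from the size of its difference. Under every other setting run, PER2 was the 1 call higher and 0 were lower. The median of the kept clock genes ran between 0.07 and 0.25; the highest came with the filter at the 75th percentile, which keeps 4 members. DBP changed sign under 1 and HLF under 2 of the 6 scaling, probe set and pseudocount settings, both close to 0, HLF reaching 0.15 after lowess centring. NFIL3, NR1D2, TSC22D3 and USP2 stayed past 2-fold in all 6, and BMAL1 stayed under it, at most 0.97 after lowess centring. Each clock gene has 1 probe set, as do NFIL3, NR1D2, TSC22D3, USP2 and BMAL1. The choice among probe sets could therefore not change their values. No paired analysis was possible because each group has 1 array, and for the same reason no replicate could be left out.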
